A study of Mus musculus with 10 samples.

Results

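Transcription factors that give the intestinal epithelium its identity were followed as a set of 9 genes, Cdx1, Cdx2, Gata4, Gata6, Klf5, Foxa1, Foxa2, Onecut2 and Elf3, chosen by name from the 24525 genes of the expression table. All 9 had a row in it. The samples were colon tumours and adjacent colon of male C57BL/6 mice (C57BL/6N in the growth protocol) given azoxymethane (AOM), a mutagen, and dextran sulfate sodium (DSS), a polymer that damages the lining of the colon. Mice 7 weeks old received 1 intraperitoneal dose of AOM at 12.5 mg/kg, and then 3 cycles of 3 weeks in which 5 days of drinking water with 2% DSS were followed by 16 days of tap water. Both groups carried this treatment and were sampled 10 weeks after AOM: 5 libraries were labelled as tumour and 5 as adjacent-normal tissue. None of the 10 libraries was labelled as coming from 1 of the 3 untreated mice. The source label gives all 10 libraries the same mouse number, so which of them share an animal is not settled, and p-values measure the spread between these samples. RNA came from whole ground tissue, in which fewer cells of a type and less RNA per cell cannot be told apart.

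CDX1 and CDX2 are homeodomain proteins that bind the enhancers of intestinal genes and keep gut endoderm from taking a gastric fate. GATA4 and GATA6 are zinc finger factors, of which GATA4 marks the proximal small intestine and GATA6 is made along the whole gut. FOXA1 and FOXA2 are forkhead proteins that open chromatin in endoderm and are needed for goblet and enteroendocrine cells, KLF5 is a zinc finger factor of the proliferating crypt, ELF3 is an ETS factor of epithelial cells, and ONECUT2 is a cut-homeodomain factor best known from liver, pancreas and small intestine.

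In this comparison of tumour with adjacent tissue, the CDX pair and Elf3 were lower in tumours and Onecut2 was higher. With epithelial markers subtracted, Elf3 did not pass the threshold given below, while the CDX pair and Onecut2 did. On FPKM as deposited, Gata6 and Foxa2 stayed close to their adjacent levels. Both came out lower in tumours with library medians subtracted or with quantile normalization. Cdx2 fell from 68.4 ± 29.2 to 14.9 ± 24.7 FPKM and Cdx1 from 198 ± 20.2 to 66.9 ± 17.4 FPKM (mean ± SD, n = 5 per group). FPKM is a fragment count divided by transcript length and library size, so levels of different genes can be set side by side. Of the 9 genes, 8 averaged 1 FPKM or more across the 10 libraries and were tested with limma on log2(FPKM + 1), with p-values adjusted over 13016 genes. With an adjusted p of 0.05 as the threshold, 4 fell (Cdx1, Cdx2, Klf5 and Elf3), 2 rose (Foxa1 and Onecut2) and 2 did not pass (Gata6 and Foxa2). Among all tested genes 76.5% passed, 57.2% higher and 19.3% lower in tumours, so 6 of 8 factors passing is near the background. The median log2 change of the 8 was -0.23, against 0.35 for all tested genes. With each library's median subtracted, which removes that shift, 1 of the 8 rose and 6 fell, where 34.5% and 33.3% of all tested genes did (67.7% together). With quantile normalization 2 rose and 5 fell, against 36.6% and 30.2% of all tested genes (66.8% together). Without tumour 2 again 2 rose and 4 fell, where 58.6% of all tested genes rose and 20.0% fell (78.6% together).

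**Figure D1:**
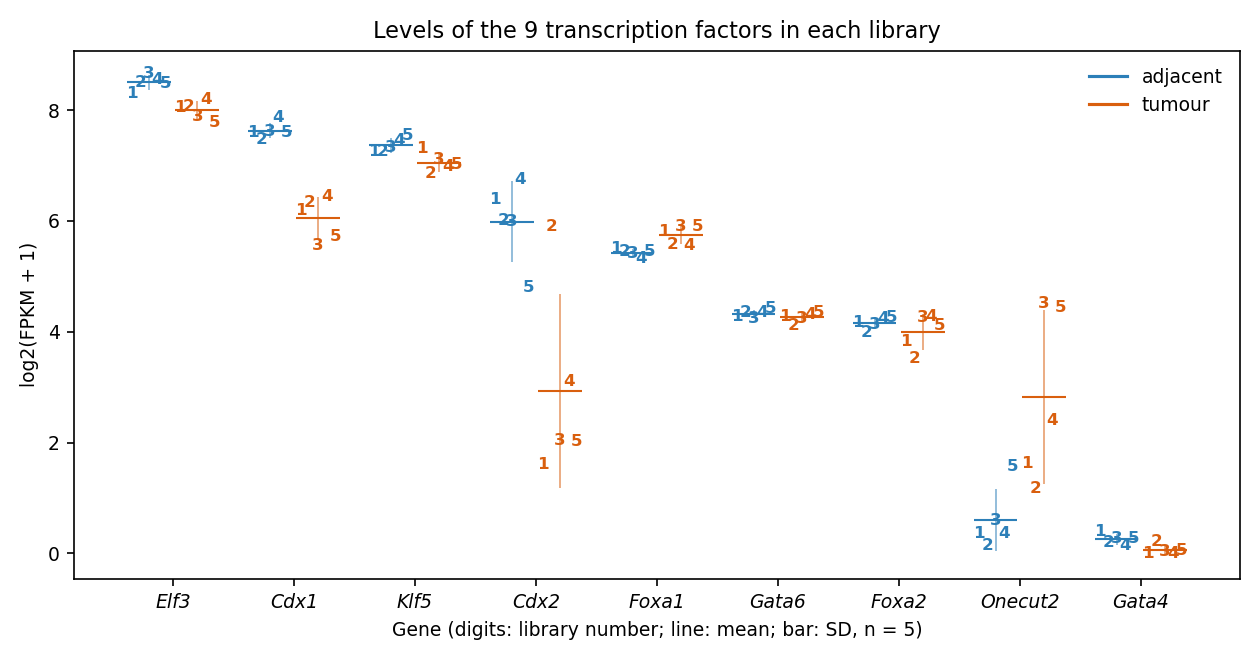
Levels of the 9 transcription factors as log2(FPKM + 1), with each digit standing for a library by its number, lines for the mean and bars for the SD of 5 libraries. Tumour 2 lies among the adjacent samples for Cdx2, at 58.95 FPKM, while the other tumours lie at 2.03 to 7.59 FPKM.

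Promoters of 3 factors that passed are shown, since these are the stretches before the start sites of genes whose levels differed. They are from RefSeq (GRCm38.p6), all on the minus strand, written 5′ to 3′ from 250 bases before the annotated start and ending before any annotated exon: Cdx2 at chr5:147307271-147307499, Elf3 at chr1:135258569-135258722 and Foxa1 at chr12:57546122-57546361. The Foxa1 stretch lies before the RefSeq start but inside the Foxa1 locus of GENCODE, in an intron of a transcript that starts further upstream. Capitals mark matches, on either strand, to the motifs searched: TTTATG for CDX factors, AGATAA for the GATA family, TGTTTAC for FOXA factors, GGGCGGG for KLF and SP factors, AGGAAG for ELF and other ETS factors, ATCGAT for ONECUT factors, CTTTGA for TCF and LEF factors, and CAAAGNCCA for HNF4 factors.
Cdx2: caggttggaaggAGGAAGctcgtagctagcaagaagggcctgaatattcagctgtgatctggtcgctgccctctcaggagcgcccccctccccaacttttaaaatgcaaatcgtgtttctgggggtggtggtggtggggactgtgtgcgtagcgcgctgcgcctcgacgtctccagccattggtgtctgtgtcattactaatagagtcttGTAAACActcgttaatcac
Elf3: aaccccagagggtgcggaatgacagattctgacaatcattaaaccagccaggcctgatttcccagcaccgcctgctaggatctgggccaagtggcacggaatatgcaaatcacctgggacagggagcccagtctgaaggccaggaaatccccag
Foxa1: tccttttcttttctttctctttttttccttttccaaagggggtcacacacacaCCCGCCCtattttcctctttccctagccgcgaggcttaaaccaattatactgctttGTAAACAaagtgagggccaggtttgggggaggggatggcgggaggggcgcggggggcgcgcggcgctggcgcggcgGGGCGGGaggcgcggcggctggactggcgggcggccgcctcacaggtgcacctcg

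The Cdx2 stretch of 229 bases held 1 FOXA match, which begins 40 bases before the start, and 1 ELF/ETS match. Over the same window, 2.9% and 27.1% of 32851 promoters held these motifs. The Foxa1 stretch of 240 bases held 1 FOXA match, 141 bases before the start, and 2 KLF/SP matches, found in 3.1% and 22.1% of promoters. Elf3, with 154 bases shown, had no match to any of the 8 motifs. No match overlapped another. These are matches of letters and say nothing of binding. Gata4 and Klf5 have no entry in the promoter table.

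Cdx2 (chromosome 5, 147300805 to 147307270, GRCm38) was the most variable of the factors among tumours. Adjacent samples 1 to 5 held 82.88, 63.62, 62.43, 106.19 and 27.00 FPKM, and tumours 1 to 5 held 2.03, 58.95, 3.08, 7.59 and 3.04 FPKM. Tumour 2 lay within the adjacent range and the other 4 tumours lay below all adjacent samples, of which sample 5 was the lowest, so the groups overlapped. The log2 change was -3.06 (SE 0.75, limma adjusted p = 0.00367). As a ratio of means Cdx2 was 4.58-fold lower in tumours, and 17.4-fold lower without tumour 2, where the log2 change was -3.80 (limma adjusted p = 3.17e-05). Its SD among tumours, 1.75 on the log2 scale, was above that of 99.8% of tested genes, whose median was 0.19.

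Cdx1 (chromosome 18, 61018862 to 61036199) fell more evenly. It was at 192.13, 177.16, 193.83, 231.59 and 193.47 FPKM in adjacent samples 1 to 5 and at 71.92, 79.33, 45.78, 85.75 and 51.66 FPKM in tumours 1 to 5. Every tumour lay below every adjacent sample, and tumour 2 was among the upper values but not apart from tumours 1 and 4. The log2 change of Cdx1 was -1.58 (SE 0.17, limma adjusted p = 2.62e-05). Groups did not overlap for 3 of the 8 tested factors (Cdx1, Foxa1 and Elf3), where 60.9% of all tested genes had groups that did not overlap, 46.5% higher and 14.3% lower in tumours. Cdx2 stood at 32.2% to 45.9% of the Cdx1 level in adjacent samples 1 to 4 and at 14% in adjacent sample 5, and at 2.8% to 74.3% in tumours with a median of 6.7%.

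Elf3 (chromosome 1, 135253575 to 135258568) had the highest level of the set in both groups. It was at 312.21, 362.22, 405.89, 374.72 and 356.96 FPKM in adjacent samples 1 to 5 and at 263.66, 268.33, 234.67, 291.88 and 216.80 FPKM in tumours 1 to 5, with all tumours lower. Its log2 change was -0.51 (SE 0.10, limma adjusted p = 0.000686). An antisense transcript is annotated across Elf3, and the library kit does not mark strand, so its reads cannot be told apart from those of Elf3. Klf5 (chromosome 14, 99298691 to 99315036) was at 150.63, 151.27, 158.80, 172.98 and 186.17 FPKM in adjacent samples 1 to 5 and at 156.88, 114.93, 136.70, 126.05 and 128.06 FPKM in tumours 1 to 5. Tumour 1 reached into the adjacent range and the other tumours lay below it. The log2 change of Klf5 was -0.31 (SE 0.09, limma adjusted p = 0.0116).

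Most markers of epithelial cells in general were also lower in tumours. Of 13 such markers, 9 fell and 2 rose, against 19.3% and 57.2% of all tested genes, with a median log2 change of -0.39, against 0.35. Among those that fell were the adhesion genes Epcam and Cdh1 and the keratin genes Krt8 and Krt19. Those that rose were Cldn4 (1.56, limma adjusted p = 4.81e-05) and Krt18 (0.36, limma adjusted p = 0.00711). Changes of the 13 markers ran from -1.07 (Krt8) to 1.56 (Cldn4), so their mean need not follow the epithelial share alone. Their summed level was 7891 to 9565 FPKM in adjacent samples and 4844 to 7026 FPKM in tumours, and none was at 0. With the mean of these markers subtracted in each library, Klf5 was at -0.03 (limma adjusted p = 0.816) and Elf3 at -0.23 (limma adjusted p = 0.052), while Cdx1 was at -1.31 (limma adjusted p = 1.11e-05) and Cdx2 at -2.78 (limma adjusted p = 0.00722). On this scale 4 factors passed, Cdx1 and Cdx2 lower and Foxa1 and Onecut2 higher, where 81.9% of all tested genes passed, 70.1% higher and 11.8% lower. Klf5 also did not pass with quantile normalization (-0.21, limma adjusted p = 0.0967), and with medians subtracted Klf5 was at -0.64 and Elf3 at -0.84.

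Foxa1 (chromosome 12, 57540628 to 57546916) was the factor with the tightest adjacent values, 44.11, 42.44, 41.58, 39.23 and 42.55 FPKM in samples 1 to 5. In tumours 1 to 5 it was at 55.37, 46.52, 58.69, 46.02 and 58.49 FPKM, all above the adjacent range, with tumours 2 and 4 nearest to it. The log2 change of Foxa1 was 0.32 (SE 0.08, limma adjusted p = 0.0047), which is below the median gene at 0.35. With medians subtracted the Foxa1 change was -0.01 (limma adjusted p = 0.932), with quantile normalization 0.26, and with epithelial markers subtracted 0.60, so its direction rests on the scaling.

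Its paralog Foxa2 (chromosome 2, 148042877 to 148046969) was at 16.98, 14.94, 16.60, 17.78 and 18.09 FPKM in adjacent samples 1 to 5 and at 13.20, 10.45, 18.09, 18.47 and 16.31 FPKM in tumours 1 to 5. Tumours 1 and 2 lay below the adjacent range and the other 3 within or just above it. The log2 change of Foxa2 was -0.16 (95% interval -0.47 to 0.15, limma adjusted p = 0.318). It passed as lower with medians subtracted (-0.49, limma adjusted p = 0.00604) and with quantile normalization (-0.43, limma adjusted p = 0.0161), and was at 0.12 with epithelial markers subtracted. Foxa2 stood at 35.2% to 45.3% of the Foxa1 level in adjacent samples and at 22.5% to 40.1% in tumours.

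Gata6 (chromosome 18, 11052064 to 11085635) had nearly the same level in all libraries. Adjacent samples 1 to 5 were at 18.45, 19.24, 17.95, 19.28 and 20.46 FPKM and tumours 1 to 5 at 18.38, 16.27, 17.89, 18.87 and 19.44 FPKM. The log2 change of Gata6 was -0.07 (95% interval -0.21 to 0.07, limma adjusted p = 0.351). With medians subtracted it was -0.40 (limma adjusted p = 0.000392), with quantile normalization -0.31 (limma adjusted p = 0.00125) and with epithelial markers subtracted 0.21 (limma adjusted p = 0.0616). A non-coding gene on the other strand, 1010001N08Rik, overlaps 504 bases of the Gata6 locus, and its reads there cannot be told apart without strand.

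Gata4 (chromosome 14, 63198922 to 63271692) was close to absent. Adjacent samples 1 to 5 were at 0.32, 0.14, 0.20, 0.10 and 0.21 FPKM, and tumours 1 to 5 at 0.00, 0.16, 0.03, 0.00 and 0.04 FPKM. At the depth estimated from low values, 1 fragment is worth 0.0111 to 0.0139 FPKM for its longest transcript, so the values of tumours 1, 3, 4 and 5 rest on few fragments or none, while tumour 2 lay within the adjacent range. Without an expression filter the log2 change of Gata4 was -0.19 (limma adjusted p = 0.0119), where 59.3% of 19733 genes passed, 44.5% higher and 14.9% lower. Sis, Lct and Fabp1, which mark small intestinal enterocytes, likewise did not exceed 0.12 FPKM in any library.

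Onecut2 (chromosome 18, 64340020 to 64400987) went the other way from the CDX pair. It was at 0.29, 0.11, 0.51, 0.29 and 1.96 FPKM in adjacent samples 1 to 5 and at 2.06, 1.24, 21.64, 4.27 and 20.62 FPKM in tumours 1 to 5. Tumours 3 and 5 held by far the most, tumour 2 the least of the tumours, and adjacent sample 5 lay above tumour 2. Mean Onecut2 was 0.632 ± 0.756 FPKM in adjacent tissue and 9.97 ± 10.3 FPKM in tumours (SD, n = 5 each). On the log2 scale this was a rise of 2.21, with an SE of 0.66 and an adjusted p from limma of 0.0106. A pseudocount of 0.1 gave 3.42 for Onecut2 and a pseudocount of 5 gave 1.13, both past the threshold. With its adjacent mean of 0.632 FPKM, Onecut2 passed the expression filter only through the tumours. The ratio of means was 15.8-fold, and 33.2-fold without adjacent sample 5. Its SD among tumours, 1.57 on the log2 scale, was above that of 99.7% of tested genes.

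**Figure D2:**
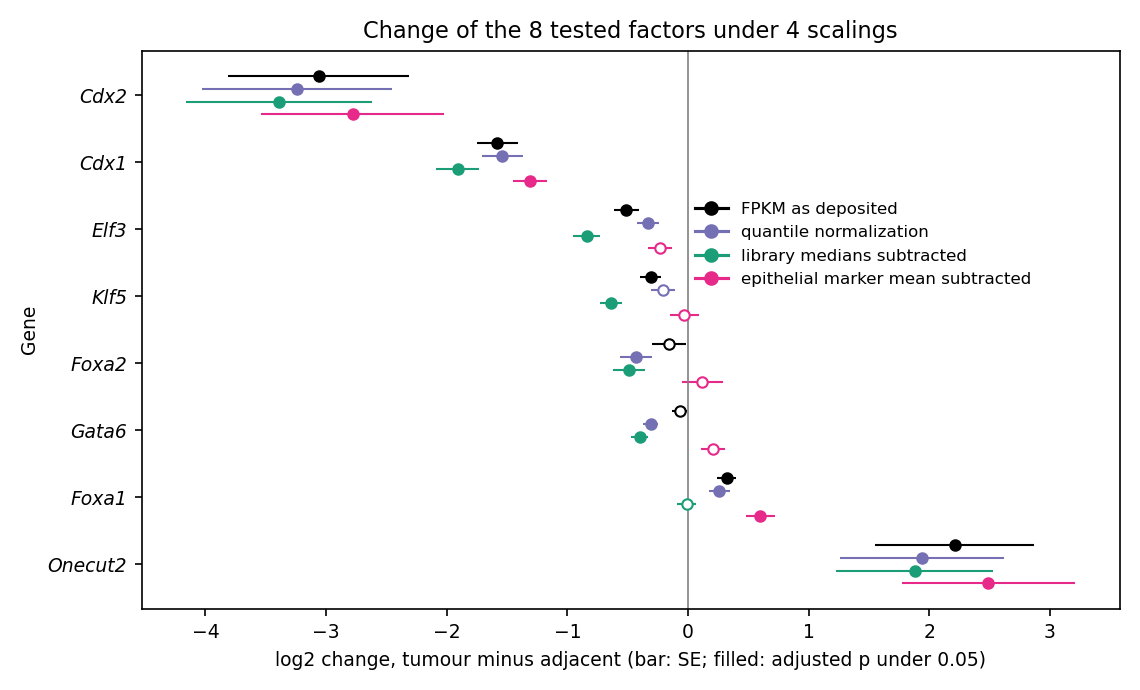
Change of the 8 tested factors, tumour minus adjacent, on the log2(FPKM + 1) scale under 4 scalings, with bars for the SE of the limma fit (n = 5 per group) and filled points for an adjusted p under 0.05. Cdx1, Cdx2 and Onecut2 are filled under all 4 scalings, whereas the other 5 factors are open under at least 1.

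The order of the factors by median level differed between the groups. In adjacent tissue it was Elf3 (362 FPKM), Cdx1 (193.5), Klf5 (158.8), Cdx2 (63.6), Foxa1 (42.4), Gata6 (19.2), Foxa2 (17.0), Onecut2 (0.29) and Gata4 (0.20). The ranges of Cdx1 and Klf5, of Cdx2 and Foxa1, of Gata6 and Foxa2, and of Onecut2 and Gata4 overlapped. Within single libraries, Cdx1 was above Klf5 and Gata6 above Foxa2 in 5 of 5 adjacent samples, Cdx2 was above Foxa1 in 4 of 5 and Onecut2 above Gata4 in 3 of 5. In tumours the median of Cdx2, 3.08 FPKM, lay next to last, after Onecut2 at 4.27 FPKM, with overlapping ranges and Onecut2 above Cdx2 in 3 of 5 tumours. Elf3 and Klf5 led in tumours, at 264 and 128 FPKM, and their ranges overlapped neither each other nor that of Cdx1.

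Genes that CDX factors are known to activate were lower in tumours. Of 16 listed CDX target genes 14 were tested, and 13 of them fell, with a median log2 change of -2.29, where 19.3% of all tested genes fell and the median was 0.35. The fall was not particular to them. All listed colonocyte, goblet and enteroendocrine genes fell too, with medians of -3.73, -2.75 and -3.71. Car1 and Krt20 are in both the CDX and colonocyte lists, and Muc2 and Tff3 in both the CDX and goblet lists. Mep1a, a brush border protease, fell by 4.30 on the log2 scale (SE 0.42, limma adjusted p = 2.26e-05), from 80.76 to 113.50 FPKM in adjacent samples to 1.29 to 10.31 FPKM in tumours. Abcb1a, a drug efflux pump, fell by 3.36 (SE 0.40, limma adjusted p = 4.82e-05). Cldn2, a claudin of leaky tight junctions, was the exception at 0.59 (SE 0.22, limma adjusted p = 0.0292). The Cldn2 call was lost with medians subtracted (0.26, limma adjusted p = 0.287) and when adjacent sample 2, 4 or 5, or tumour 2, 3 or 5, was left out (limma adjusted p from 0.0523 to 0.0723). The other 2, Sis and Lct, were below the filter.

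Tumour 2, which held Cdx2 at the adjacent level, also held the highest tumour level of 12 of these 14 genes, against 23.6% of all tested genes. Krt20, a keratin of mature surface cells, was at 434.22 FPKM in tumour 2 and at 17.01, 24.84, 176.21 and 34.62 FPKM in tumours 1, 3, 4 and 5. Isx, an intestinal homeobox gene that limits vitamin A uptake, was at 20.64 FPKM in tumour 2 and at 1.42 to 5.82 FPKM in the others. These 2 genes were the only ones of the 14 within the adjacent range in tumour 2. There, 11 others lay below every adjacent sample, from Car1 at 313.23 FPKM (lowest adjacent value 316.30 FPKM) to Mep1a at 10.31 FPKM (lowest adjacent value 80.76 FPKM), and Cldn2 lay above. Tumour 2 also had the highest tumour level of 8 of 13 epithelial markers, 4 of 7 colonocyte genes and 6 of 7 fibroblast genes, and of all 4 macrophage, 4 T cell and 3 B cell genes tested, and the part of cell makeup in its profile was not tested. The CDX motif TTTATG lay within 250 bases before the start of 1 of the 9 tested targets with a promoter entry, where 12.4% of all genes in the promoter table had it.

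**Figure D3:**
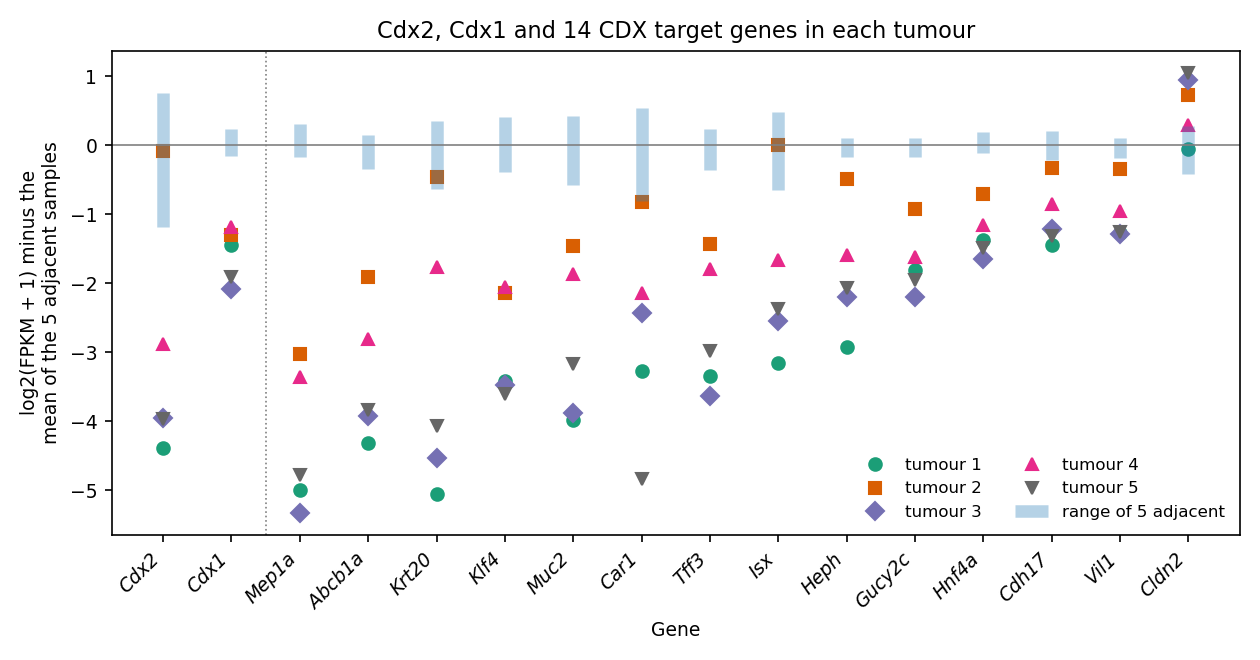
Log2(FPKM + 1) of Cdx2, Cdx1 and 14 CDX target genes in each of the 5 tumours, relative to the mean of the 5 adjacent samples, with blue bars for the range of the adjacent samples. Tumour 2 lies near 0 for Cdx2, Isx and Krt20, while the other tumours lie lower for these 3 genes.

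Other transcription factors of the gut epithelium fell more often than they rose. Of 23 listed, 20 were tested, 12 fell and 4 rose, and the median change was -1.12 on the log2 scale, against 19.3% and 57.2% of all tested genes. Hnf4a, Klf4 and Isx are also among the CDX target genes counted above, and Spdef is also a goblet cell marker. Vdr, the vitamin D receptor, fell by 3.09 on the log2 scale (SE 0.22, limma adjusted p = 1.06e-05) and Klf4, a factor of post-mitotic colonocytes and goblet cells, by 2.94 (SE 0.33, limma adjusted p = 3.93e-05). Gata5, a relative of Gata4 and Gata6, rose by 2.31 (SE 0.43, limma adjusted p = 0.000707), from 1.10 to 5.19 FPKM in adjacent samples to 4.22 to 22.40 FPKM in tumours. Ascl2, a Wnt-driven stem cell factor, rose by 2.11 (SE 0.40, limma adjusted p = 0.00073). Without tumour 2, 6 of the 20 rose and 12 fell, where 58.6% of all tested genes rose and 20.0% fell. Among other relatives of the 9 factors, Foxa3 rose by 0.35 (SE 0.10, limma adjusted p = 0.00747), and Cdx4 and Onecut1 were listed at 0 in every library.

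Genes that depend on FOXA factors in secretory cells were split. Of 9 listed 6 were tested: 4 fell and 2 rose, against 19.3% and 57.2% of all tested genes, and the median change was -2.61 on the log2 scale. Gcg, the proglucagon gene, fell by 4.12 on the log2 scale (SE 0.33, limma adjusted p = 1.46e-05), and Pyy, the peptide YY gene of L cells, fell by 3.36 (SE 0.77, limma adjusted p = 0.0025). Isl1, an endocrine transcription factor, rose by 1.86 (SE 0.57, limma adjusted p = 0.0123), and Muc6, a gland mucin, by 1.23 (SE 0.26, limma adjusted p = 0.00121). Both averaged less in adjacent samples than the filter asks, at 0.914 and 0.426 FPKM, and passed it only through the tumours. Of 7 enteroendocrine and 8 goblet cell markers all fell, where 19.3% of all tested genes fell. Gcg, Pyy and Muc2 are counted both among these markers and among the FOXA-dependent genes.

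Of 9 small intestinal genes that GATA4 is known to regulate, 4 were tested, with 2 falls and 1 rise, where 19.3% of all tested genes fell and 57.2% rose. The list mixes genes that GATA4 activates with ileal genes, Fabp6 and Slc10a2, that it is known to hold down in the proximal intestine, so its counts have no single expected direction. Apob, the apolipoprotein of lipid particles, fell by 2.95 on the log2 scale (SE 0.41, limma adjusted p = 0.000117) and Fabp6, the ileal bile acid binding protein, by 1.72 (SE 0.24, limma adjusted p = 0.000105). Slc10a2, the ileal bile acid transporter, rose by 0.59 (SE 0.21, limma adjusted p = 0.027), from 1.19 to 4.01 FPKM in adjacent samples to 2.63 to 4.42 FPKM in tumours. The Slc10a2 call was lost with medians subtracted (0.26), with quantile normalization (0.08) and when adjacent sample 2, 3 or 4, or tumour 3 or 4, was left out (limma adjusted p from 0.0529 to 0.0673).

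Gastric genes, which CDX2 is known to hold down, were mostly low. Of 19 listed 6 were tested, and 5 rose and 1 fell, with a median log2 change of 1.32, where 57.2% of all tested genes rose. Among the 5, Aqp5, Muc6 and Gkn3 averaged 0.18, 0.426 and 0.872 FPKM in adjacent samples and passed the filter only through the tumours. This count and median therefore lean towards rises. Muc6 is also counted among the FOXA-dependent genes. With medians subtracted 3 of the 6 rose, against 34.5% of all tested genes, and with quantile normalization 3 rose, against 36.6%. Aqp5, a water channel, rose by 1.52 (SE 0.20, limma adjusted p = 6.37e-05), from at most 0.36 to between 1.55 and 3.62 FPKM. Gkn3, a gastrokine, rose by 1.80 (SE 0.72, limma adjusted p = 0.0402), with 15.93 and 19.40 FPKM in tumours 3 and 5 and at most 2.98 FPKM elsewhere. The Gkn3 call was lost with medians subtracted (limma adjusted p = 0.0901), with quantile normalization (0.0738), with no filter (0.0518), with a pseudocount of 5 (0.0504), and when any of adjacent samples 1 to 4, tumour 3 or tumour 5 was left out (0.0719 to 0.0955). Ctse, cathepsin E, fell by 0.85 (SE 0.21, limma adjusted p = 0.00432). Krt7, the most abundant of the tested genes, rose by 1.41 (SE 0.15, limma adjusted p = 2.65e-05). Among genes below the filter, Muc5ac, the defining mucin of gastric surface cells, did not exceed 0.02 FPKM. Tff1, Cldn18, Anxa10 and Atp4a were higher in every tumour than in any adjacent sample, at no more than 2.02 FPKM. Pdx1 was lower in every tumour, at 0.51 to 1.07 FPKM in adjacent samples and 0.00 to 0.37 FPKM in tumours. Of all tested genes, 46.5% were higher and 14.3% lower without overlap. Groups overlapped for the rest below the filter. Of these, Tff2, Gkn2 and Gast had lower means in tumours, and Muc5ac, Gkn1, Sox2, Barx1 and Pgc higher ones.

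Squamous epithelium of the anal canal could lie beside a distal tumour. Of 13 of its genes 7 were tested and 5 rose, where 57.2% of all tested genes rose. Among the 5, Krt4 and Krt6a averaged 0.552 and 0.904 FPKM in adjacent samples and passed the filter only through the tumours. The median change of the 7 was 1.28 on the log2 scale. The whole list summed to 30.8 to 62.6 FPKM in adjacent samples and 42.2 to 82.6 FPKM in tumours. Most of that sum in adjacent samples was Sprr1a, at 23.59 to 57.19 FPKM there and 8.62 to 44.09 FPKM in tumours. Sprr1a went the other way and did not pass (-0.63, SE 0.45, limma adjusted p = 0.221). Krt14 rose by 2.13 (SE 0.24, limma adjusted p = 3.42e-05) and Krt15 by 2.00 (SE 0.36, limma adjusted p = 0.000557). Of the genes below the filter, Krt5 and Trp63 did not exceed 0.03 FPKM in any library. Dsg3, also below it, was at 0.06 to 0.18 FPKM in adjacent samples and 0.37 to 2.29 FPKM in tumours. Whether squamous tissue lay in any sample was not tested.

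Markers of several other cell types, and of colonocytes within the epithelium, moved with the groups as well, though not all lists did. All 7 tested fibroblast, 6 endothelial, 4 macrophage and 4 neutrophil genes rose, where 57.2% of all tested genes rose; with medians subtracted or with quantile normalization 5 of the 6 endothelial genes did. The fibroblast genes summed to 78.5 to 197 FPKM in adjacent samples and 592 to 988 FPKM in tumours. All 7 colonocyte genes fell, where 19.3% of all tested genes fell. They summed to 2973 to 4873 FPKM in adjacent samples and 128 to 978 FPKM in tumours. Of 6 smooth muscle genes 3 rose, of 4 T cell genes none passed, of 3 tested B cell genes 2 fell, the 1 tested neural and glial gene did not pass, and the 1 tested mesothelial gene rose. Their part in the changes of the 9 factors was not tested beyond the subtraction of epithelial markers given above.

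Likeness between genes was measured as the root mean square difference of log2(FPKM + 1) profiles over the 10 libraries, each centred on its own mean. The nearest genes are chosen on these same libraries, so a shared high library follows from the choice. The gene nearest to Cdx2 was Mgat4c, a glycosyltransferase gene, at 0.30, followed by Tmigd1, an adhesion protein of the brush border, at 0.45. Mgat4c was at 68.65 FPKM in tumour 2 and at 4.61 to 17.93 FPKM in the other tumours, and adjacent sample 5 was its lowest adjacent value, at 46.89 FPKM, as for Cdx2. Nearest to Onecut2 were Cadps, a gene of dense-core vesicle release, at 0.20, and Otop2, a proton channel gene, at 0.35. Cadps was at 32.03 and 29.05 FPKM in tumours 3 and 5 and at 2.17 to 5.56 FPKM in the other tumours. Cdx1 was nearest to Steap3 (0.14) and Slc2a13 (0.15), Elf3 to Mif4gd and Pi4k2b (both 0.09), Klf5 to Akap9 and Sgsm2 (both 0.06), and Foxa1 to Rlf (0.04) and Zfp646 (0.05). Among the 8 tested factors themselves, Gata6 and Klf5 were the nearest pair, at 0.16, and Cdx2 and Onecut2 the most distant, at 3.33. Profiles were not scaled by their spread, so factors that vary little come out near each other.

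**Figure D4:**
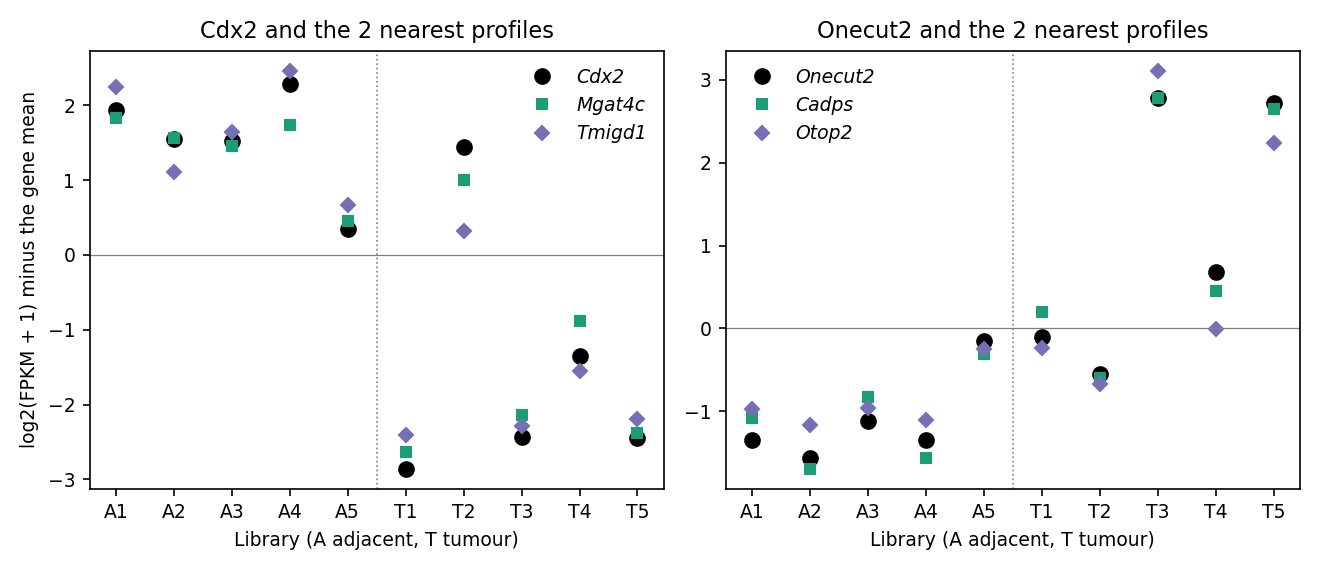
Centred log2(FPKM + 1) values of Cdx2 and Onecut2 in each library, with those of the 2 genes nearest to each in profile. Mgat4c and Tmigd1 have their highest tumour value in tumour 2, as Cdx2 does, and Cadps and Otop2 have theirs in tumours 3 and 5, as Onecut2 does. They were chosen for likeness over these same libraries, so the shared high values follow from the choice.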

How the data were processed

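Per the labels' protocols, polyadenylated RNA was made into libraries with the TruSeq RNA v2 kit and sequenced on a HiSeq. Several quantifiers, among them Cufflinks 2.2.1 and RSEM 1.2.15, stand beside the aligner TopHat2 2.1.0 and the build mm10 in the submitters' processing notes; the maker of this table is not given there. The authors deposited FPKM per gene and library, which divides by each library's total. A single line without values was left out. Depth is not stated; the spacing of low values, read on single-transcript genes, put it at roughly 21100000 to 26500000 fragments per library, with 60.0% to 68.0% of 167 to 222 low values within 0.15 of a whole fragment.

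From the table, a limma model of tumour against adjacent (version 3.58.1, R 4.3.3) was run on log2(FPKM + 1), using trended and robust variance moderation, for genes averaging 1 FPKM or more, two-sided, with Benjamini-Hochberg adjustment. Changes of genes at low levels come out smaller on it than as ratios. The fit was tested on simulated data. Gene positions are from GENCODE M21 (GRCm38). The members and gene lists were chosen with earlier results of these data known. Named genes are the 9 factors, up to 2 rises and 2 falls with the largest change per list (cell type lists are given by counts only) and the 2 nearest profiles of each factor past the threshold, without clone-named genes; a few others were named after their values were seen. Alternatives were other pseudocounts, no filter, other scalings, a replicate block, plain empirical Bayes and leaving out each library.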

Additional observations from a re-analysis of the deposited data

Results flagged for a closer look

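Among 28 named genes, each group of 5 libraries was searched for a highest or lowest library far from the rest on the log2 scale, with a gap to the next library larger, as a share of the group's range, than Dixon's 95% critical value. Of 56 groups 7 had one, where chance gives about 1 in 20 for independent, normally spread groups. These groups share the same libraries and are not independent. All 7 lay in tumour 2 or adjacent sample 5. Neither Cdx2 nor Onecut2 was flagged in any library. In tumour 2, Gata4 was high at 0.16 FPKM (others 0.00 to 0.04), Pyy was low at 2.27 FPKM (others 29.66 to 70.27) and Krt15 was low at 1.98 FPKM (others 8.28 to 12.77). In adjacent sample 5, Gata5 was high at 5.19 FPKM (others 1.10 to 1.73), Pyy at 826.53 FPKM (others 157.19 to 219.27) and Gkn3 at 2.95 FPKM (others 0.17 to 0.45), while Abcb1a was low at 82.94 FPKM (others 108.35 to 116.63).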

How the results depend on the processing

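Of 9951 genes that passed, 74.8% were higher in tumours; with medians subtracted it was 50.9% of 8815, with quantile normalization 54.7% of 8693 and with epithelial markers subtracted 85.6% of 10655. Leaving out 1 library at a time gave 9423 to 10230 genes and 6 of the 8 tested factors each time. Over these 10 fits the log2 change ranged from -3.80 to -2.73 for Cdx2, -1.68 to -1.46 for Cdx1 and 1.79 to 2.63 for Onecut2. The sign turned for Foxa1 with medians subtracted (-0.01) and for Gata6 (0.21) and Foxa2 (0.12) with epithelial markers subtracted. Of the alternatives for the 8 factors, 134 kept direction and side of the threshold, 4 lost a call (Klf5 under 2 scalings, Elf3, and Foxa1, which also turned sign), 4 gained one and 3 turned sign; the cause was not tested. With the replicate block 10067 genes and the same number of factors, 6, passed, and Slc10a2 was the one gene to lose its call among the factors and the genes named from the regulator, target, gastric and squamous lists (the nearest profiles were not compared) (limma adjusted p = 0.0757). Same-numbered samples had correlations of 0.022 to 0.422 across genes, 3 of 5 above 0.1, and 2 of 5 tumours were closest to the adjacent sample of their number, so the numbers were not taken to pair the samples. Gata4 is limited by depth.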

Other observations

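Some relatives of the factors were named here after their values were seen. Onecut3 was at most 0.03 FPKM in adjacent samples and at 0.00, 0.00, 0.40, 0.05 and 0.45 FPKM in tumours 1 to 5, so its highest values were in tumours 3 and 5, the same tumours as for Onecut2. Isl1 was at 0.68 FPKM in tumour 2, within the adjacent range of 0.42 to 1.61 FPKM, and at 3.58 to 16.71 FPKM in the other tumours. These values are given as descriptions.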
